A study of Mus musculus with 4 samples.

Results

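The cytosolic ribosomal protein genes encode the proteins of the small (40S) and the large (60S) subunit of the ribosome outside the mitochondria. They were taken from the authors' deposited gene table by symbol: every row named Rpl or Rps followed by a number, with the suffixes a, l or x where present, together with Rplp0 to Rplp2 and Rpsa. S6 kinases and mitochondrial ribosomal proteins were left out. The rule found 80 of the 9615 genes in the table, 32 of the small and 48 of the large subunit, and the table describes each of the 80 as a ribosomal protein gene. RefSeq lists 85 protein-coding genes with such symbols in GRCm38.p6. Of these, 79 had a row under the same symbol, and Rps3a was matched to Rps3a1, its newer name. Rpl10l, Rpl32l, Rpl36a, Rpl39l and Rpl3l had no row and were not analysed here.

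ChIP-seq for H3K9ac, the acetyl group on lysine 9 of histone H3 that marks promoters in use, was done on leukaemic bone marrow. The tg library came from mice with floxed Gfi1b alleles (fl/fl), the Nup98/HOXD13 leukaemia transgene and Mx-Cre. The WT library came from mice with the same floxed alleles and the same transgene but without Mx-Cre, so both groups carried the leukaemia transgene and neither was free of disease. Mx-Cre is expressed from an interferon-inducible promoter and recombines floxed alleles in blood cells and in other organs. The labels name neither the animals' age, nor an inducing treatment, nor how many animals went into a library. There was 1 H3K9ac library per genotype, so no difference below has a replicate check and no p-value is given. Rabbit IgG libraries of both genotypes were not analysed here.

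Ribosomal protein genes are among the most highly transcribed genes of dividing cells, and their products are needed in equal amounts. Their mRNAs start with a run of pyrimidines, the 5′ terminal oligopyrimidine (TOP) tract, through which mTOR signalling sets their translation. In humans, loss of 1 copy of several of them causes Diamond-Blackfan anaemia, a failure of red cell production, and loss of a copy of RPS14 contributes to the anaemia of the 5q- form of myelodysplastic syndrome. Free RPL5 and RPL11 bind MDM2 when ribosome assembly fails, and p53 then accumulates.

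The promoters of 6 members are shown because the results turn on these genes: Rpl14 and Rps24 were higher in tg, Rpl38 and Rpl6 were lower, and Rps18 and Rpl36al had the highest levels in tg. The sequences are from RefSeq (GRCm38.p6) and run from 160 bases before the annotated start to its 20th base on the gene's strand.
Rpl14 (chr9:120571357-120571536, plus strand): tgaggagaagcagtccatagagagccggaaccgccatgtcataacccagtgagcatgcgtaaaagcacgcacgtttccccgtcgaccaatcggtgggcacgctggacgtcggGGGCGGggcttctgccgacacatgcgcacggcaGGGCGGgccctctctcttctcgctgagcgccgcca
Rps24 (chr14:24490518-24490697, plus strand): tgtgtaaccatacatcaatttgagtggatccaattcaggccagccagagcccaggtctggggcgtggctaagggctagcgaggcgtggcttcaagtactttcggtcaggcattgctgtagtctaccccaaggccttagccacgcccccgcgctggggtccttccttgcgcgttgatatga
Rpl38 (chr11:114668420-114668599, plus strand): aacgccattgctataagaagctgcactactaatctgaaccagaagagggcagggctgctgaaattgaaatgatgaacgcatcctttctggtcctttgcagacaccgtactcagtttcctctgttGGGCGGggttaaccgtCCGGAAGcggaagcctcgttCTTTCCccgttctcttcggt
Rpl6 (chr5:121204341-121204520, plus strand): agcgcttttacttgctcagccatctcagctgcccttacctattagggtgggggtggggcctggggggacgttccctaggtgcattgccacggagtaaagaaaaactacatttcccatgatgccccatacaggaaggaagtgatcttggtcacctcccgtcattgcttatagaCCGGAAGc
Rps18 (chr17:33955646-33955825, minus strand): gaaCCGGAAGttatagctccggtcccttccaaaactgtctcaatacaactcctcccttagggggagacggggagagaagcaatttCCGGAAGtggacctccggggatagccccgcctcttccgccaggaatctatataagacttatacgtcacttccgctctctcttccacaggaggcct
Rpl36al (chr12:69184048-69184227, minus strand): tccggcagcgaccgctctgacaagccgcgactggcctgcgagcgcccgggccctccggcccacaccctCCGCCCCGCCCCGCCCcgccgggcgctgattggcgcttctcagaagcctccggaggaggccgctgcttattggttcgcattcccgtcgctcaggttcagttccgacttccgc

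Capitals mark letters that match 1 of the motifs searched. These were CCGGAAG for the ETS family including GABP, AAGATGG for YY1, GGGCGG for the GC box of SP1 and TATAAA for the TATA box, each on both strands. CTTTCC and CTTTTC, short forms of the TOP tract, were searched on the gene's strand from 25 bases before the start onwards. Rpl14 held 2 GC boxes, with first bases at -48 and -15 from the start. Rpl36al held 3 on the opposite strand at -92, -87 and -82, and neighbouring ones overlap by 1 base. Rpl38 held a GC box at -36, the ETS letters at -20 and a pyrimidine run from base 1. Rps18 held the ETS letters at -157 and -75, Rpl6 at base 13, and Rps24 held none of the motifs in this window. Of all 32851 promoter windows of this length in the RefSeq table, 30.9% held a GC box, 6.89% the ETS letters, 3.32% the YY1 letters, 8.54% a TATA box and 3.72% a TOP form. Promoters were given for 60 of the 80 members (75%), under the 80% needed for a count over the group, so such a check is void. The RefSeq start lay 0 to 56 bases from the gene boundary in the deposited table, except for Rps18, where it lay 336 bases inside the gene.

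The deposited values are log2 levels of reads scaled to a total of 1000000 per library and averaged over the probes of a gene, the stretches in which reads were counted. Whole reads were worked out from them for all 80 members. The totals used for this scaling, called library totals here, were worked out from the values. They were 163712 reads in tg and 309649 in WT, 1.89 times fewer in tg, so equal scaled levels give about that many fewer reads in tg. Whether these totals hold all sequenced reads or only those counted in probes is not stated. Scaling to the same total removes any difference common to all genes, so ratios below are relative to the library totals. Members held 4 to 52 reads in tg (median 20.0) and 9 to 106 in WT (median 38.5). At this depth the upper end of a member's 95% counting interval was typically 3.26 times its lower end, and many differences under 2-fold were not detectable. The libraries differed at those listed erythroid and neutrophil marker genes that had a row. Of the 20 erythroid markers listed, 12 had a row. Of these, 11 had 2-fold or more H3K9ac in tg, against 16.5% of all genes. Their reads, summed over the 9 genes where reads were recovered, came to 1478 scaled reads in tg and 413 in WT, and Epor, Rhag and Alas2 were at 0 in WT. Of 16 neutrophil markers, 5 had a row and none was at 0. All 5 were at least 2-fold lower in tg (55.0 scaled reads in tg and 313 in WT, summed), against 15.8% of all genes. Each 1-probe gene with a row held at least 9 reads over both libraries, so a marker could have a row through 1 library alone. Markers without a row are not seen, and these counts are no test of a difference between the libraries. In bulk marrow, fewer cells of a type and less acetylation per cell cannot be told apart.

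Relative to the library totals, H3K9ac at the ribosomal protein genes as a group was nearly the same in both libraries. The 80 genes together held 1812 reads in tg and 3327 in WT, or 1.11% and 1.07% of the library totals. The ratio of these shares was 1.03, with a 95% counting interval of 0.972 to 1.09. The median log2 ratio of tg over WT was -0.01 over the members and 0.05 over all 9615 genes. The members were also closer together, with an SD of 0.58 on the log2 scale against 1.27 over all genes, and 1.10 over the 7117 genes with at least 20 recovered reads. In tg the median member had 104 scaled reads, against 103 in WT, while the median gene of the table had 62.6 in tg and 61.3 in WT. Both libraries placed 54 of 80 members above the median gene and 13 below it. Of all 9615 genes, both libraries placed 3486 above it and 3483 below it. These markers of erythroid and neutrophil cells differed in the same libraries by median log2 ratios of 3.60 and -1.99, and their part in the members' values was not tested.

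**Figure D1:**
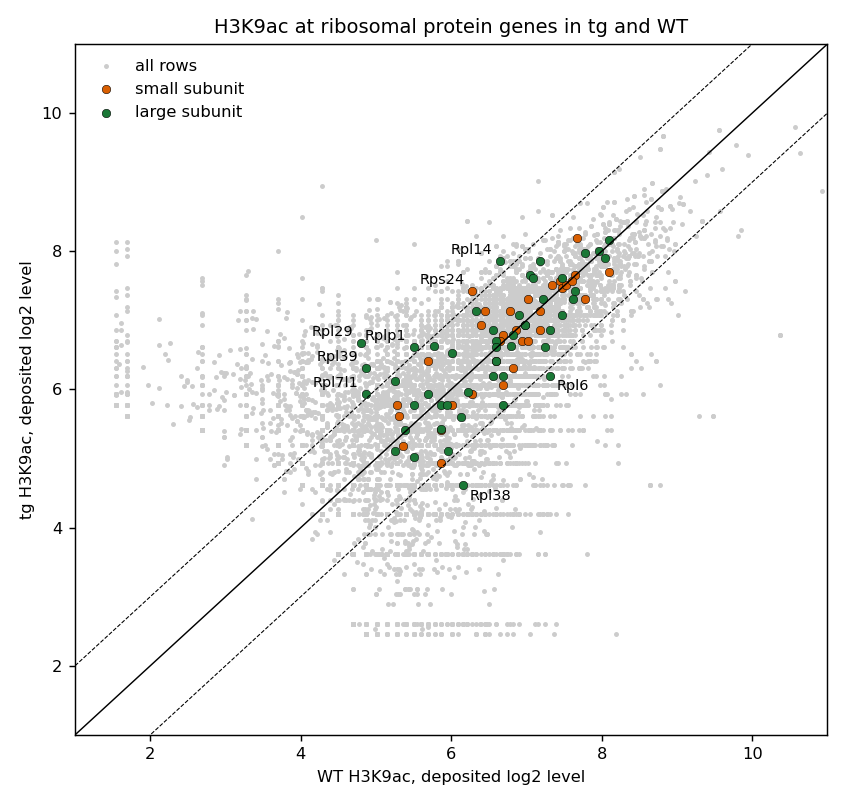
Deposited log2 H3K9ac level in tg (vertical axis) against WT (horizontal axis) for all 9615 genes (grey) and the 80 ribosomal protein genes (coloured by subunit). The solid line marks equality and the dashed lines a 2-fold difference; 72 of the 80 members lie between the dashed lines, and the 8 others are named.

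By the deposited log2 values, tg exceeded WT by 2-fold or more at 6 of the 80 members (7.5%) and fell short of it by 2-fold or more at 2 (2.5%). Over all genes of the table the same rule called 16.5% higher and 15.8% lower, and among genes with at least 20 reads 11.4% and 14.5%. By counting error, the interval of 5 members lay above 1 and that of 1 below 1, against 11.9% and 12.2% of the genes with 1 or 2 probes. Together these were 7.5% of the members, against 24.1% of the 8995 genes with 1 or 2 probes. A difference of less than 1.5-fold was found for 60 members (75%) and for 45.9% of all genes. Across the 80 genes, the levels of the libraries correlated with a Spearman coefficient of 0.80, against 0.57 across all genes. Genes are not independent replicates, and all points share the same 2 libraries.

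The subunits had nearly the same centre. The 32 small-subunit genes had a median log2 ratio of -0.01 (SD 0.44) and the 48 large-subunit genes -0.01 (SD 0.66). Their summed reads gave ratios of 1.01 (0.919 to 1.11) for the small and 1.04 (0.969 to 1.12) for the large subunit. Of the 8 genes beyond 2-fold, 7 belonged to the large subunit and 1, Rps24, to the small one. Large-subunit genes with 2 probes were more frequent, 14 of 48 against 3 of 32. Of the 7 large-subunit genes beyond 2-fold, Rpl29 had 2 probes and each of the others had 1. The spread between subunits was not tested.

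**Figure D2:**
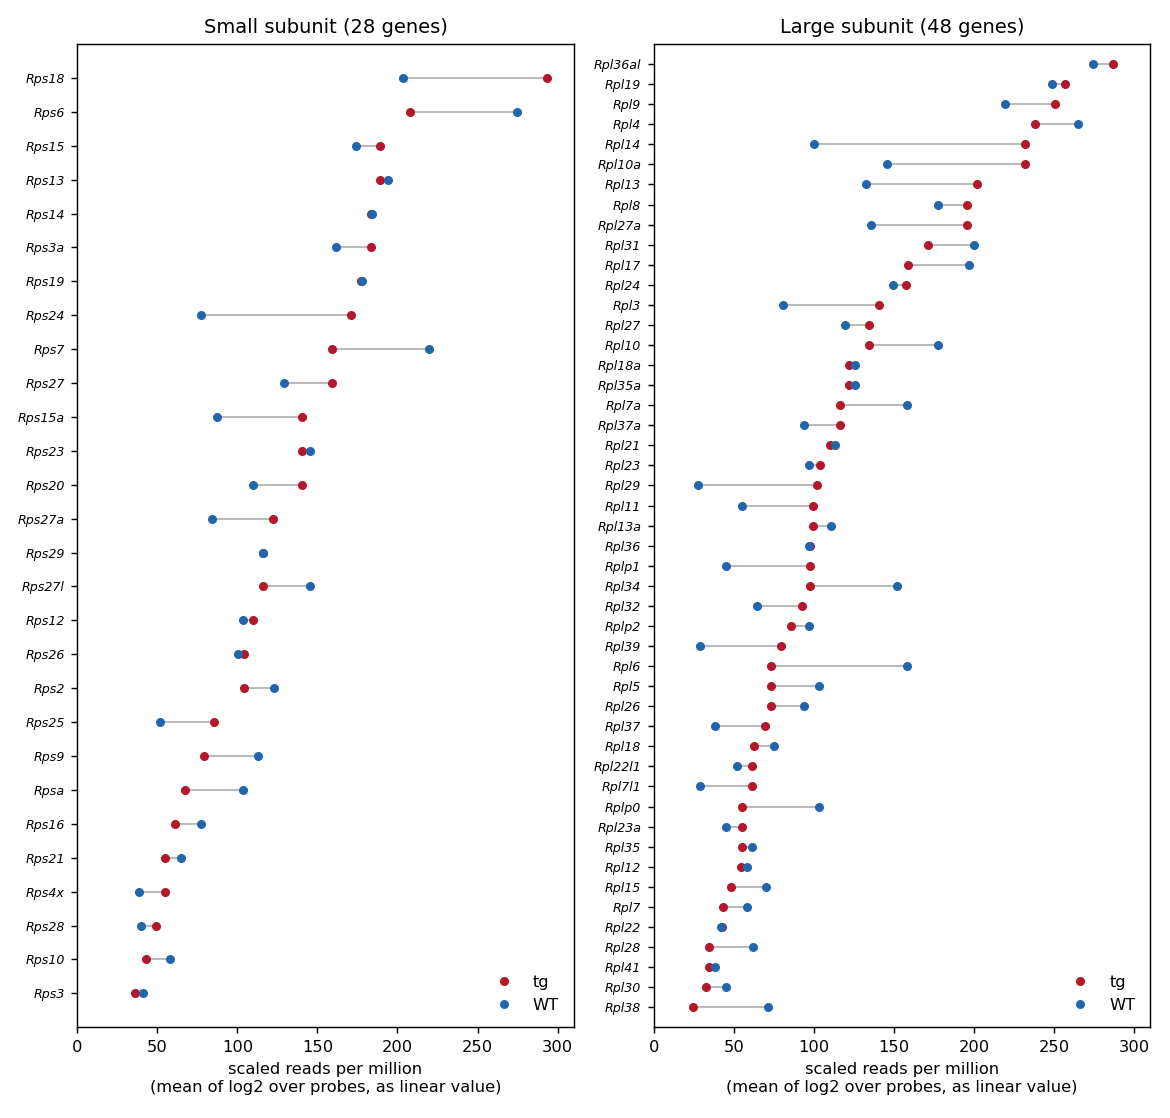
H3K9ac level of 76 of the 80 members in tg (red) and WT (blue), as scaled reads (for genes with 2 probes, the linear value of the mean log2), sorted by the tg level within each subunit. Most pairs of points lie close together, and the tg levels span 24.4 for Rpl38 to 293 for Rps18.

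Of the 6 genes higher in tg, Rpl14 had the interval that lay farthest above 1. It encodes a protein of the 60S surface (chromosome 9, 120571517 to 120574653, GRCm38, ENSMUSG00000025794). Its single probe held 38 reads in tg and 31 in WT, or 232 and 100 scaled reads. This was a 2.32-fold higher level with an interval of 1.40 to 3.85. Rps24, a small-subunit gene mutated in Diamond-Blackfan anaemia (chromosome 14, 24490681 to 24496146), held 28 reads in tg and 24 in WT. Its level was 2.21-fold higher (1.23 to 3.98). The lower ends of these intervals were the highest among the members.

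The others rested on fewer reads or on unequal probes. Rpl39, an X-linked gene of a very small 60S protein, held 13 reads in tg and 9 in WT (2.73-fold, 1.08 to 7.24). Rplp1, which encodes an acidic protein of the ribosomal stalk that recruits elongation factors, held 16 and 14 reads, and its interval of 0.989 to 4.78 reached 1. Rpl7l1, a paralog of Rpl7, held 10 reads in tg and 9 in WT (2.10-fold, 0.767 to 5.85). Rpl29, a 60S gene on chromosome 9 (106429454 to 106431568), had the highest log2 ratio of all members, 1.88. Its probes held 10 and 28 reads in tg and 2 and 37 in WT. By summed reads it was 1.84-fold higher (1.15 to 2.96), so averaging log2 values over a low and a tall probe gave the larger figure. Rpl10a, below the 2-fold line, was the other member with an interval above 1, with 38 reads in tg and 45 in WT (1.60-fold, 1.01 to 2.52).

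The libraries also differed in Y-linked reads: Uty held 0 reads in tg and 28 in WT, and Ddx3y 1 and 22. Among the X-linked members, Rpl39 was higher as given above. Rps4x held 9 reads in tg and 12 in WT (1.42, 0.528 to 3.67), and Rpl10 held 22 and 55 (0.757, 0.439 to 1.26). The 3 X-linked members thus lay on both sides of equality, and the 215 X-linked genes of the table had a median log2 ratio of -0.24. The part of the animals' sex in these values was not tested.

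Lower in tg were Rpl38 and Rpl6. Rpl38, a 60S gene needed in mice for the patterning of the axial skeleton (chromosome 11, 114668524 to 114672331), held 4 reads in tg and 22 in WT. It was 2.91-fold lower, and its interval of 0.988 to 11.6 included 1. Rpl6 (chromosome 5, 121204481 to 121209241) held 12 reads in tg and 49 in WT, or 73.3 and 158 scaled reads. It was 2.16-fold lower (1.13 to 4.46), the only member with an interval below 1. Its probe had the same values as the small nucleolar RNA gene SNORA42, which lies within Rpl6, so the counted stretch belongs to both. Just inside the 2-fold line was Rplp0, the stalk base gene, with 9 reads in tg and 32 in WT (1.88-fold lower, 0.877 to 4.48).

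**Figure D3:**
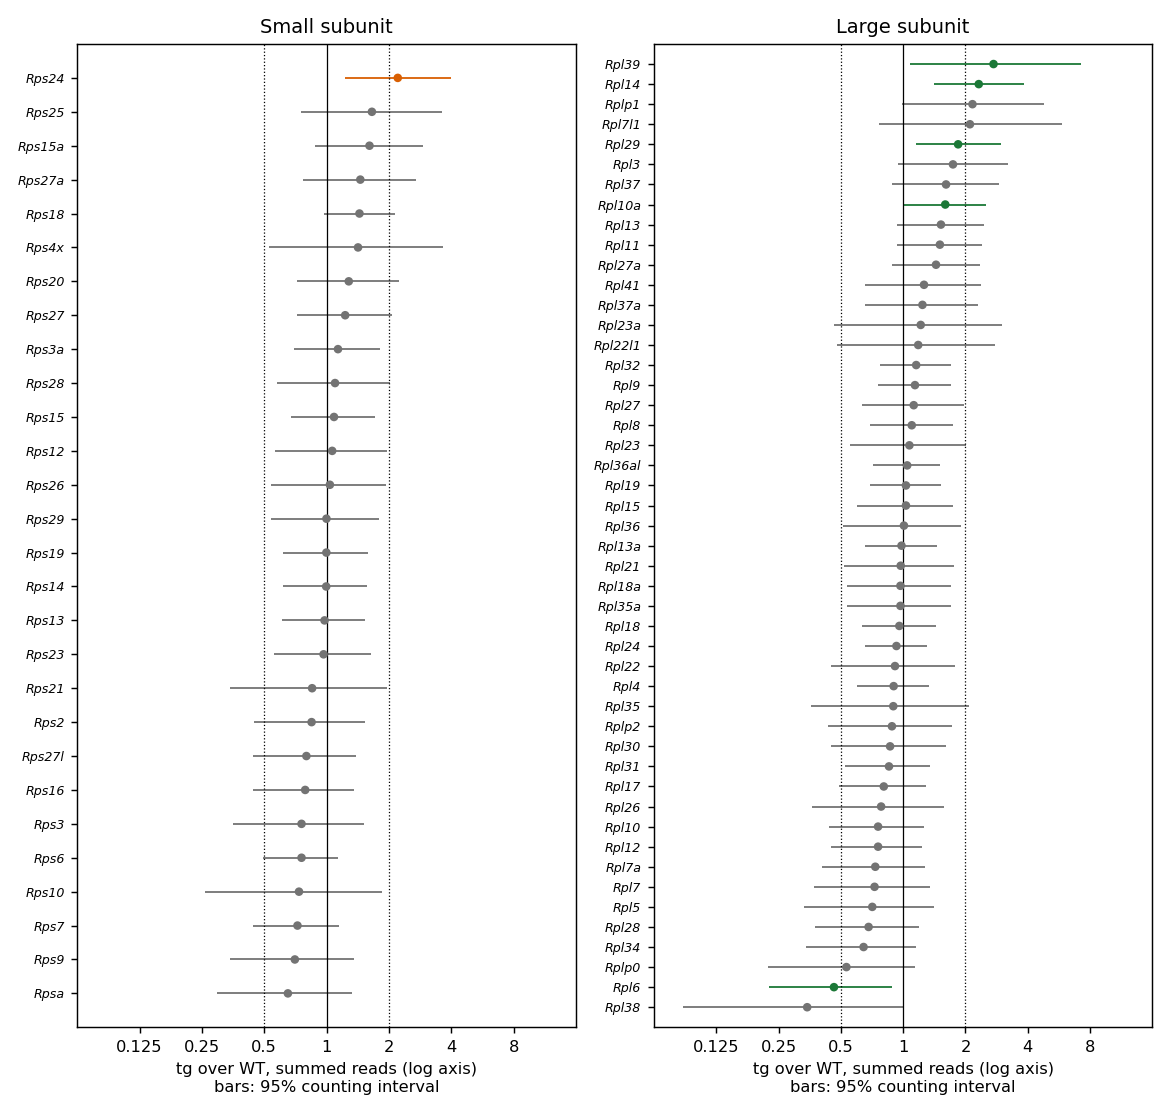
Ratio of scaled H3K9ac reads in tg over WT for 76 of the 80 members, from reads summed over its probes (log axis), with 95% counting intervals as bars. Coloured bars leave out 1: Rps24 of the small subunit, and Rpl39, Rpl14, Rpl29, Rpl10a and Rpl6 of the large subunit; the dotted lines mark 2-fold.

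Of the stalk genes, Rplp0 was lower by 0.91 on the log2 scale, Rplp1 was higher by 1.11, and Rplp2, the partner of Rplp1, held 14 reads in tg and 30 in WT with a log2 ratio of -0.18. Rpsa, which encodes a 40S protein also known as the laminin receptor, held 11 reads in tg and 32 in WT (0.650, 0.296 to 1.32). The intervals of all 4 genes included 1.

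The highest levels in tg were those of Rps18, Rpl36al, Rpl19 and Rpl9, and the highest in WT those of Rps6, Rpl36al, Rpl4 and Rpl19. Rps18, a 40S head protein gene, held 48 reads in tg and 63 in WT, or 293 and 203 scaled reads (1.44-fold, 0.969 to 2.13). Rpl36al had 287 scaled reads in tg and 275 in WT, Rpl19 257 and 249, Rpl9 250 and 220, and Rpl4 238 and 265. Rps6, which encodes the S6 kinase substrate, had 208 in tg and 275 in WT (0.757, 0.493 to 1.14). Rpl14 and Rpl10a each had 232 scaled reads in tg, against 100 and 145 in WT. Of the 80 members, 31 lay above the 75th percentile of genes in both libraries, as did 1608 of all 9615 genes. At the low end, Rpl38 had 24.4 scaled reads in tg and Rpl29 had 27.8 in WT. The value of Rpl29 is a mean of log2 levels over probes with 2 and 37 reads in WT. By reads, the lowest in WT were the 1-probe genes Rpl39 and Rpl7l1, with 9 reads or 29.1 scaled reads each. Probe lengths are not stated in the table, so the order of levels between genes is not per length.

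Genes of Diamond-Blackfan anaemia and the 5q- syndrome had nearly equal scaled H3K9ac as a group. All 23 listed genes had a row. Rps24 was the 1 gene beyond 2-fold and 22 lay between, while 32.3% of all genes lay beyond 2-fold in either direction. Of the 23 genes, 10 had a log2 ratio above 0 and 13 below. The summed reads gave a ratio of 1.05 (0.944 to 1.17). Rps19, the most often mutated gene of the anaemia, held 29 reads in tg and 55 in WT, a ratio of 0.997 (0.613 to 1.59). Rps14, the gene of the 5q- region, held 30 reads in tg and 57 in WT, a ratio of 0.995 (0.618 to 1.58). Rps29 held 19 and 36 reads (0.998, 0.541 to 1.79), and Rpl35a 20 and 39 (0.970, 0.536 to 1.70). For each of these 4 genes the counting interval still leaves room for a 1.5-fold difference in either direction.

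Of the MDM2-binding pair, Rpl5 held 12 reads in tg and 32 in WT (0.709, 0.333 to 1.41). Rpl11, with 2 probes, held 35 reads in tg and 44 in WT (1.5, 0.937 to 2.40). They lay on opposite sides of equality, and both intervals included 1. By summed reads, Rps15a (1.61, 0.883 to 2.92) was the highest of the list after Rps24. Among the lowest were Rps7 (0.723, 0.442 to 1.15), Rps10 (0.736, 0.260 to 1.85) and Rpl26 (0.783, 0.364 to 1.58). The ratios of Rpl31, Rpl35, Rps27, Rps20, Rpl9, Rpl18, Rps26, Rpl27, Rpl15, Rpl8 and Rps28 ranged between the 0.854 of Rpl31 and the 1.28 of Rps20, each with an interval that included 1.

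The paralogs compared here and their parents both had a row, which itself required a minimum of reads. Other paralogs could not be compared: Rpl36a, the parent of Rpl36al, had no row, nor had Rpl10l, Rpl32l, Rpl39l and Rpl3l. Rpl22l1, a paralog of Rpl22, held 10 reads in tg and 16 in WT (1.18, 0.480 to 2.77). Rpl22 itself held 14 reads in tg and 29 in WT over 2 probes (0.913, 0.446 to 1.78). Rps27l, a p53-responsive paralog of Rps27, held 19 and 45 (0.799, 0.441 to 1.39), while Rps27 held 26 and 40 (1.23, 0.720 to 2.06). Rpl7, the parent of Rpl7l1, held 15 reads in tg and 39 in WT over 2 probes (0.727, 0.373 to 1.35). The intervals of each pair overlap, and the difference between a paralog and its parent was not tested. Ribosomal protein genes have many processed pseudogenes, and the labels do not say how reads that fit several places were handled.

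In 17 members reads were counted in 2 probes, whose places within the gene are not stated in the table. The tall probe held a median of 2.80 times the reads of the low probe in tg and 3.29 times in WT. Rpl18 held 35 and 3 reads in tg and 67 and 8 in WT, and Rpl32 held 38 and 6 in tg and 66 and 6 in WT. Rpl24 had the most reads of any member, 52 in tg and 106 in WT (0.928, 0.653 to 1.30), with 29 and 23 in tg against 79 and 27 in WT. Over the 17 genes the summed log2 ratios lay between -0.55 for Rpl28 and 0.88 for Rpl29. The deposited and the summed ratio differed in sign for 4 genes. In Rpl15 the deposited log2 ratio was -0.53 while the summed ratio was 1.03 (0.600 to 1.73), and in Rpl41 they were -0.15 and 1.26 (0.654 to 2.38). In Rpl24 and Rpl22 the deposited values were 0.08 and 0.03 against summed ratios below 1. Rpl29 and Rpl15 were the members whose deposited and summed values were over 0.5 apart on the log2 scale. The remaining 2-probe genes were Rpl12, Rps16, Rpl28, Rpl13a, Rps3, Rpl37, Rpl30 and Rps28, with summed ratios between the 0.681 of Rpl28 and the 1.61 of Rpl37.

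Neighbouring genes with 1 probe fixed which reads of a 2-probe member belonged together. In Rpl15, the probe shared with the overlapping gene Nkiras1, which encodes an inhibitor of NF-kappaB signalling, held 3 reads in tg and 18 in WT (0.315, 0.0595 to 1.08). The other probe of Rpl15 held 21 and 26 (1.53, 0.817 to 2.82). In Rps3, the probe shared with the small nucleolar RNA gene Snord15a held 7 reads in each library (1.89, 0.566 to 6.32), and the other held 5 in tg and 23 in WT (0.411, 0.122 to 1.11). The probes of these genes thus lay on opposite sides of equality, although each interval included 1. In Rpl12 the tall probe, with 20 reads in tg and 54 in WT (0.701, 0.397 to 1.19), was shared with Lrsam1, a ubiquitin ligase gene on the opposite strand. In Rpl32 the tall probe was shared with Snora7a, which lies within the gene.

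Many probes were not the property of 1 gene. Of the 80 members, 23 had exactly the same values as a neighbour no more than 1000 bp away, and a further 7 shared 1 probe. For 13 of the 23 the partner lay inside the member. These were mostly small nucleolar RNA genes, which are processed from introns of ribosomal protein genes, among them Snord14a in Rps13, Snord68 in Rpl13, Snora3 in Rpl27a, SNORD24 in Rpl7a, Snora21 in Rpl23 and Snord42b in Rpl23a. For the other 10 the partner reached outside. Rps18 shared its probe with Vps52, a vesicle tethering gene, Rpl36al with the N-glycan enzyme gene Mgat2, Rpl9 with the lipoic acid synthase gene Lias, Rps27 with Rab13, and Rpl35a with Iqcg. Each of these 5 pairs lies on opposite strands with the starts towards each other, and the gaps between the 4 that do not overlap are 53 to 234 bp. Their H3K9ac therefore cannot be assigned to the ribosomal protein gene alone. Neighbours with more than 2 probes were not checked. The 50 members for which no shared probe was found included Rpl14, Rps24, Rpl29, Rpl39, Rpl38, Rps19 and Rps14.

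The genes were short and scattered. The median member spanned 3237.5 bp, against 22472 bp over all genes of the table, and 63 members (78.8%) were under 5000 bp, against 14.2% of all genes. The members lay on 19 chromosomes, with 14 on chromosome 7. None of the 14 was beyond 2-fold, against 32.3% of all genes in either direction. The highest log2 ratio among the 14 was 0.69 for Rps15a. Rpl13a, also on chromosome 7, held 41 reads in tg and 79 in WT over its 2 probes (0.982, 0.656 to 1.45).

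Of 23 listed genes with TOP tracts or ribosome contacts, 21 had a row, 3 exceeded 2-fold in the direction of tg and 1 in that of WT, and the log2 ratios had a median of -0.08 and an SD of 0.85. Over all genes the shares were 16.5% and 15.8%, so 3 of 21 higher was near the share over all genes. Higher were genes of the elongation factor 1 exchange complex, Eef1b2 (38 reads in tg and 34 in WT; 2.11-fold, 1.30 to 3.46) and Eef1d (19 and 17; 2.11-fold, 1.04 to 4.33), and the nucleolar protein gene Npm1 (2.22-fold, 1.23 to 4.05). Eef1b2 had exactly the same values as Ndufs1, the gene listed next to it, so its counted stretch cannot be assigned to Eef1b2 alone. Lower was Vim, the gene of the intermediate filament vimentin, with 6 reads in tg and 46 in WT (4.05-fold lower). Eef1a1, the elongation factor that brings aminoacyl-tRNA to the ribosome, held 44 and 125 reads (0.666, 0.461 to 0.946). Fau, which encodes a ribosomal protein fused to a ubiquitin-like protein, held 11 reads in tg and 21 in WT (0.991, 0.431 to 2.15). The 40S scaffold gene Rack1, listed as Gnb2l1, had a ratio of 1.56 (0.910 to 2.65).

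In the p53 surveillance list, 7 of 10 genes had a row, and the median log2 ratio was -0.08. By the deposited values 2 of the 7 were beyond 2-fold, both higher in tg. Over all genes, 16.5% were higher by this rule and 15.8% lower. With 7 genes, a departure from these shares was not tested. Mdm4, an inhibitor of p53, was higher (40 reads in tg and 37 in WT; 2.04-fold, 1.27 to 3.29), as was Trp53 (45 and 33; 2.58-fold, 1.61 to 4.17). Mdm2 held 22 reads in tg and 61 in WT (0.682, 0.399 to 1.13). Cdkn1a, the p53 target that encodes p21, held 10 and 39. By summed reads it was 2.06-fold lower in tg (ratio 0.485, 0.216 to 0.989), while its deposited log2 ratio was -0.60. Among 13 factors listed as binders of ribosomal protein promoters, 11 had a row. By the deposited values 1 was 2-fold higher and 0 were lower, against 16.5% and 15.8% of all genes. The higher factor was Nrf1, whose deposited log2 ratio of 1.39 stood against a summed ratio of 0.887 (0.667 to 1.17). Yy1 held 30 reads in tg and 94 in WT (0.604, 0.386 to 0.919), and Gabpa 21 and 43 (0.924, 0.521 to 1.59).

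**Figure D4:**
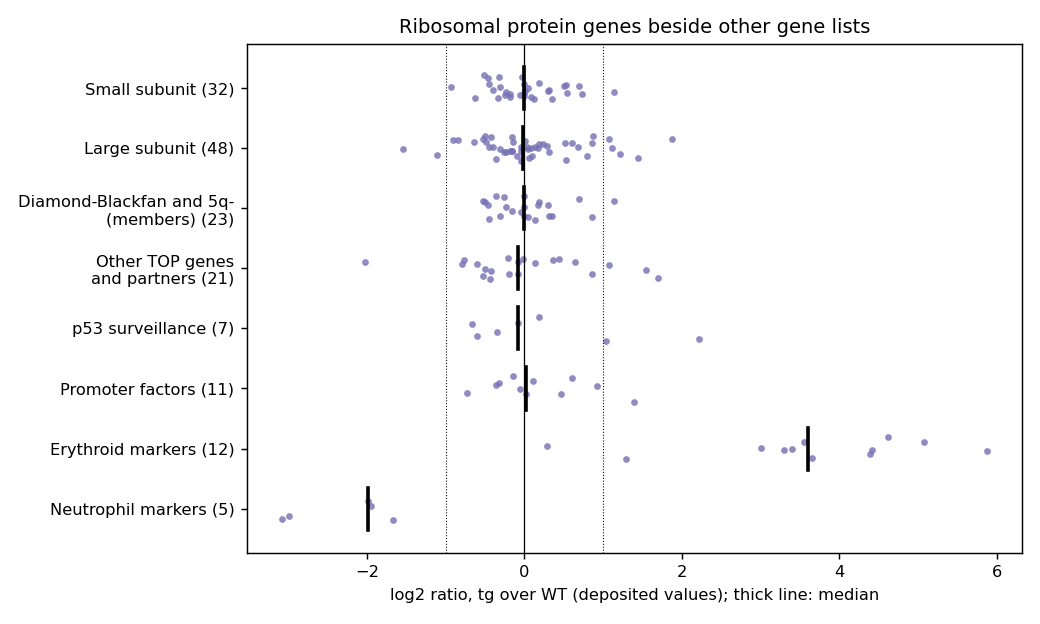
Log2 ratio of tg over WT (deposited values) for each gene of 8 lists, with the median as a thick line and dotted lines at 2-fold; the number of genes with a row is in brackets, and vertical scatter within a list is only for legibility. The 2 subunits and the Diamond-Blackfan list are centred at 0, while erythroid markers lie to the right and neutrophil markers to the left.

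Set beside the mitochondrial ribosomal protein genes, the cytosolic ones had higher median levels in both libraries. The 65 mitochondrial genes had a median of 67.2 scaled reads in tg and 64.6 in WT, against 104 and 103 for the 80 cytosolic genes. Of the mitochondrial genes, 6 (9.23%) were higher by 2-fold or more and 2 (3.08%) were lower by that much, with an SD of log2 ratios of 0.65. Their median log2 ratio was 0.18, with 41 genes above 0 and 24 below, against -0.01 with 38 above and 42 below for the cytosolic genes. Their summed reads gave a ratio of 1.10 (1.01 to 1.19), against 1.03 (0.972 to 1.09). With 1 library per genotype, no difference between these groups was tested.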

How the data were processed

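H3K9ac ChIP-seq of leukaemic mouse bone marrow was analysed from the authors' deposited gene table, whose columns were matched to the tg and WT libraries by library code. Per the submitters' processing notes, the tools were CASAVA 1.8.2, FastQC, BWA and SAMtools, on mm10 (GRCm38); no source states their settings. Per the file headers, each value is the mean, with its SD, over a gene's probes. The deposited values are log2 of reads scaled to 1000000: 100% of the 1-probe genes gave whole reads in both libraries within 0.01 of a read, with 0 reads entered as 0.9. Reads of 2-probe genes were solved from mean and SD. Each 1-probe gene held at least 9 reads over both libraries.

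Folds came from reads summed over probes and divided by each library's total. Their 95% intervals are exact (Clopper-Pearson, conditional on the sum of both libraries' reads) and cover counting error only, since reads made by PCR are not independent molecules (SciPy 1.17.1). The recovery was tested on simulated data. The 2-fold threshold is only a size, and no count test was run. Members and lists were chosen with earlier results of these data known. Named were members beyond 2-fold or with intervals leaving out 1, those with the highest and lowest levels, those with 2 probes, paralogs and their parents, the stalk genes and Rpsa, and the Diamond-Blackfan list. Others were named after their values were seen, and some members and listed genes that enter the counts are not reported by name here. Values of the erythroid and neutrophil lists are in the report. Of the other lists, the monocyte one had 5 genes with a row and a median log2 ratio of 0.60, with 3 above 0. Its summed ratio of 0.308 covers the 3 genes with recovered reads, and Ly86 held 83 of their 92 WT reads. The B cell and the T and NK cell lists had 2 and 3 genes and summed ratios of 1.48 and 1.79. Alternatives changed the measure, the scaling, the members and the fold.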

Additional observations from a re-analysis of the deposited data

How the results depend on the processing

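No paired analysis was possible because there was 1 H3K9ac library per genotype, and for the same reason no library could be left out. The median log2 ratio of the 80 members stayed between -0.05 and -0.00 under every alternative run: summed reads, ratios centred on the median gene, members with at least 20 reads, 1-probe members, members without paralogs, without probe sharing or, chosen after seeing the data, without X-linked genes or Rpl29. That of the small-subunit genes lay between -0.11 and -0.00 and that of the large-subunit genes between -0.06 and 0.03. Each shift was smaller than the distance from the middle to the end of the counting interval of the same genes' summed reads. The count of members at least 2-fold higher was 5 or 6 at the 2-fold threshold. The count of members at least 2-fold lower was 2, except that it was 1 without members that share all values with a neighbour, which removed Rpl6. With 1.5-fold in place of 2-fold, 13 members were higher and 7 lower. Within 1.5-fold lay 75% of the members and 45.9% of all genes. With 1-probe genes only, the ratio of the read shares was 1.08. It was not taken over the library totals that gave 1.03, so these ratios are not directly comparable. Depth limits the precision of single members, with 4 to 52 reads behind each value in tg.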
